A study of Drosophila melanogaster with 8 samples.

Results

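Autophagy genes were followed in the midguts of aged female *Drosophila*, as a group of 10 genes listed by name: Atg1, Atg13, Atg9, Atg18a, Atg5, Atg7, Atg16, Atg8a, Atg8b and ref(2)P. The 10 genes were chosen with earlier results of these data known. Of these, 9 matched a row by name among the 19299 features listed, and Atg8b was not analysed here. The Que group consisted of flies fed quercetin (Que), a plant flavonoid, at 10 µM in the food from day 26 for 14 days. The DMSO group received food with DMSO, the solvent of Que, for the same time. Both groups were wild-type mated females, whose age is given as 40 to 50 days by the sample labels, and were kept on cornmeal-agar food. RNA from whole midguts was sequenced in 4 samples per group, and each sample pooled 200 midguts. No label says that the samples came from separate cohorts of flies, so the p-values measure the spread between these samples. In whole tissue, fewer cells of a type and less RNA per cell cannot be told apart.

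Autophagy is the process by which a cell encloses part of its cytoplasm in a double membrane, the autophagosome, and delivers it to the lysosome for breakdown. The kinase Atg1 and its partner Atg13 start the process when nutrient signals fall, and Atg9 and Atg18a help to build the membrane. A ubiquitin-like conjugation system containing Atg7, Atg5 and Atg16 then attaches Atg8a to the membrane lipid, and ref(2)P carries ubiquitinated cargo to Atg8a. In the fly gut, autophagy is known for its part in removing larval midgut cells at metamorphosis and in the upkeep of the adult epithelium. Much of its control lies in phosphorylation, lipidation and protein breakdown, which RNA levels do not measure.

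Levels are given as RPKM, reads per kilobase of merged exon scaled to a library of 1000000 assigned reads, so that genes of unequal length can be set side by side. The libraries held 27253832 to 35619139 assigned reads. The 9 genes held 368 to 33788 reads in each sample, well above the 3 reads taken as the limit of detection, a limit that covers counting error only. All 9 were among the 13249 genes that averaged 0.1 RPKM or more. These were compared on the scale log2(RPKM + 0.1) by limma (two-sided), and p-values were adjusted over all 13249 by the Benjamini-Hochberg method. The 9 genes and the pathway genes described below were also tested by exact permutation of their 8 values (two-sided), where the 70 possible arrangements put the smallest p at 0.0286. Coordinates refer to the Release 6 genome as given in the deposited table. The counted intervals reach both ends of each gene, so untranslated regions are included and transcripts of a gene are not separated.

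Transcripts of the receptor gene ref(2)P and of Atg8a were far more abundant than those of the other 7 genes. Over the 8 samples ref(2)P averaged 385 RPKM, at percentile 97.9 of the genes tested, and Atg8a averaged 316 RPKM, at percentile 97.5. The next was Atg1 with 36.5 RPKM, followed by Atg16 with 19.8, Atg13 with 14.7, Atg5 with 10.2, Atg18a with 9.15, Atg9 with 8.72 and Atg7 with 6.16 RPKM, the last at percentile 54.5. The order of the group means was the same with Que and with DMSO. Among the 8 pairs of neighbours in this order, the sample ranges overlapped in 5 pairs with Que and in 3 pairs with DMSO. The ranges of the pairs Atg5 and Atg18a, and Atg18a and Atg9, overlapped in both groups. Within samples, however, Atg5 lay above Atg18a in all 8, and Atg18a lay above Atg9 in all but DMSO 2 (8.59 against 10.1 RPKM). ref(2)P lay above Atg8a in all 4 Que samples, whereas the 2 ranges overlapped in the DMSO group.

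**Figure D1:**
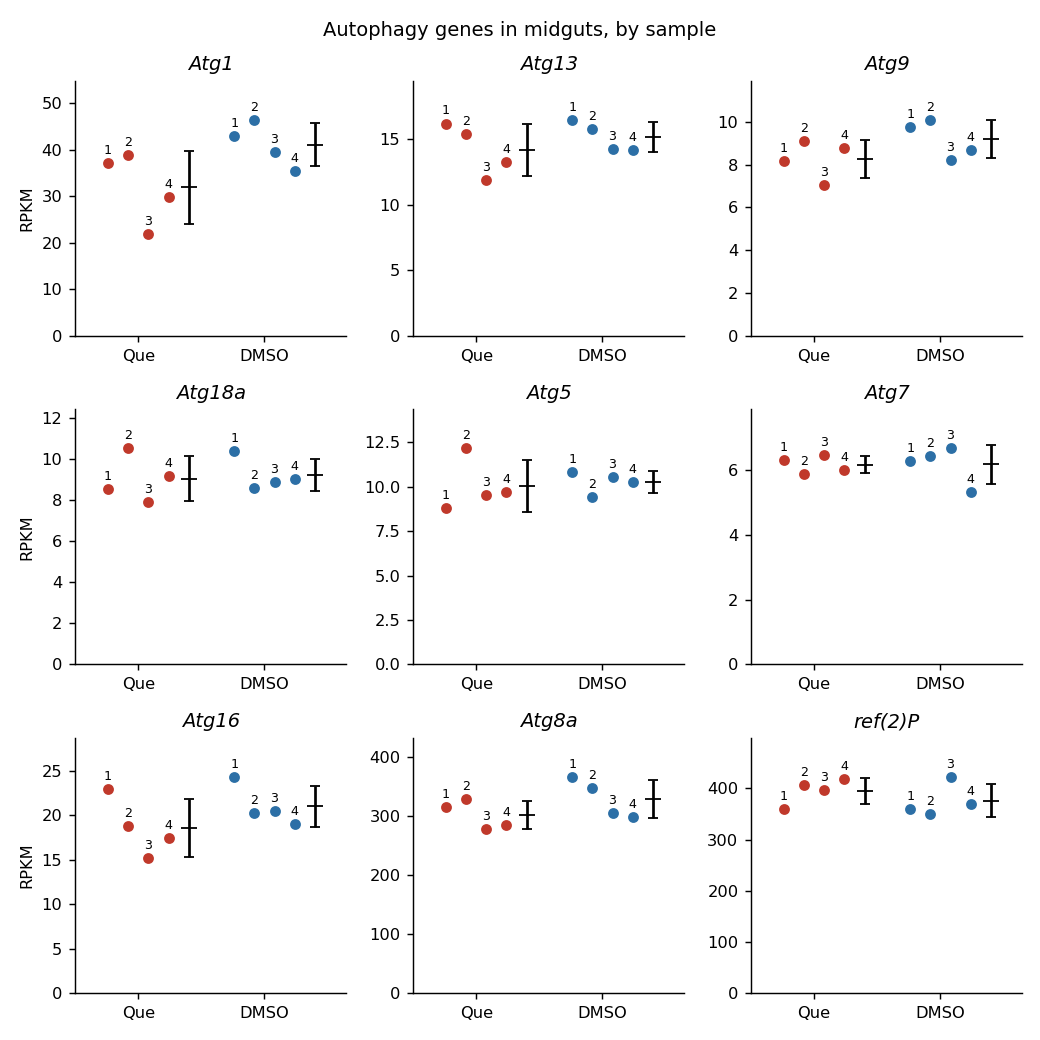
RPKM of the 9 autophagy genes (y axis, from 0) in the 4 Que samples and the 4 DMSO samples, with the replicate number above each point and the mean ± SD beside each group. The groups overlap in every panel, and Que 3 has the lowest Atg1 value, 21.8 RPKM.

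Atg1, the kinase that starts autophagosome formation, showed the largest difference of the 9 genes. It lies on chromosome 3L from 12784429 to 12805116 on the minus strand, with 11 exon blocks and 4148 bases of exon. Atg1 had 37.2, 38.8, 21.8 and 29.7 RPKM in Que 1 to 4, against 43.0, 46.4, 39.5 and 35.4 RPKM in DMSO 1 to 4. Que 3 was the lowest sample and Que 3 and Que 4 lay below every DMSO sample, while Que 1 and Que 2 lay within the DMSO range. Atg1 averaged 31.9 ± 7.79 RPKM in the Que group and 41.1 ± 4.69 RPKM in the DMSO group (SD, n = 4 each), and its log2 fold change was −0.39 (standard error 0.18, 95% interval −0.80 to 0.017, limma p = 0.0584, adjusted p = 0.946; exact permutation test p = 0.114). The difference did not pass the test, and the interval reaches from a fold of 0.574 to 1.01.

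Single samples moved the Atg1 value. Without Que 3 its log2 fold change was −0.22, with the same sign. It was −0.48 without Que 1 (limma adjusted p = 0.866), −0.50 without Que 2 (adjusted p = 0.552) and −0.46 without DMSO 4 (adjusted p = 0.983), and in these fits the unadjusted p was under 0.05. So it was for 636 of 13258, 1170 of 13243 and 471 of 13269 genes tested in the same fits, against 479 of 13249 with all samples. In replicates 1 and 2 alone the difference between the group means was −0.23, and in replicates 3 and 4 alone it was −0.55.

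**Figure D2:**
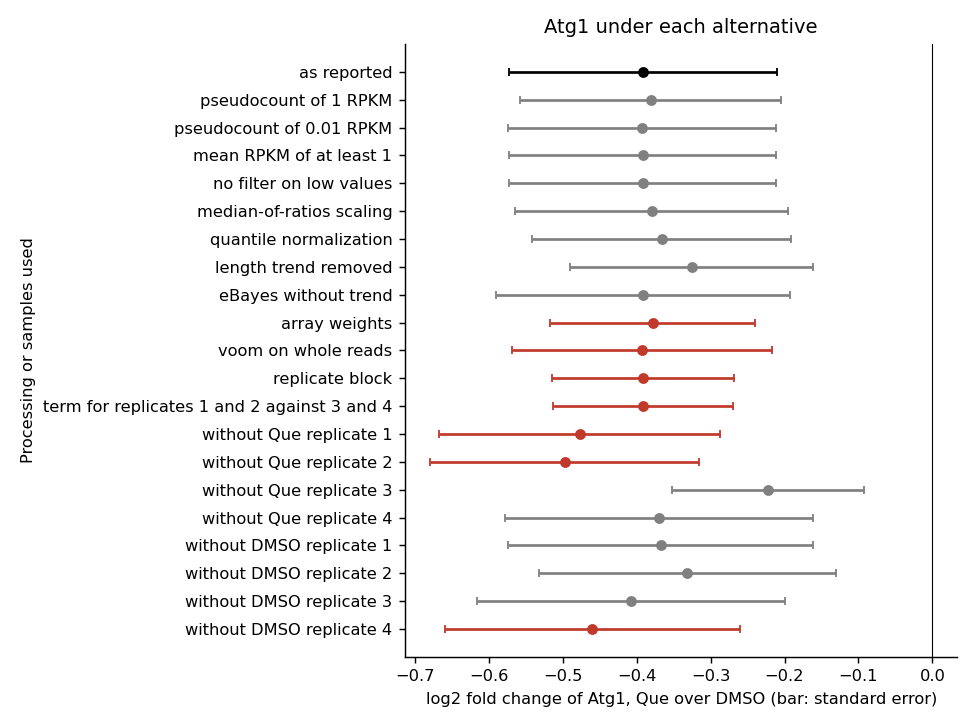
Log2 fold change of Atg1, Que over DMSO (x axis; bars are standard errors), as reported (black) and under each alternative processing or with a sample left out, in red where the unadjusted limma p was under 0.05 and in grey otherwise. Each point lies below 0, from −0.50 without Que 2 to −0.22 without Que 3.

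Atg13, the regulatory partner of Atg1 (chromosome 3R, 8349815 to 8352817, plus strand, a single exon of 3003 bases), had 16.2, 15.4, 11.9 and 13.3 RPKM in Que 1 to 4, against 16.5, 15.7, 14.3 and 14.2 RPKM in DMSO 1 to 4. Que 3 and Que 4 again lay below every DMSO sample, and the other 2 Que samples lay within the DMSO range. The log2 fold change was −0.10 (standard error 0.12, 95% interval −0.37 to 0.17, limma adjusted p = 0.9496; exact permutation test p = 0.4). The size of this difference was smaller than the within-group SD of 0.16 on the log2 scale.

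Atg9, a transmembrane protein whose vesicles supply membrane to the growing autophagosome, lies on chromosome 2R from 16294400 to 16297232 (plus strand, 1 exon block). It had 8.17, 9.08, 7.05 and 8.78 RPKM with Que, against 9.76, 10.1, 8.19 and 8.68 RPKM with DMSO. Que 1 and Que 3 were below all DMSO samples. Its log2 fold change was −0.15 (standard error 0.12, 95% interval −0.42 to 0.12, limma adjusted p = 0.946; exact permutation test p = 0.229), a difference that did not pass the test. Atg18a, which binds the lipid PI3P on the early membrane (chromosome 3L, 8186857 to 8191118, plus strand, 4 exon blocks), had 8.56, 10.5, 7.94 and 9.21 RPKM with Que, against 10.4, 8.59, 8.91 and 9.05 RPKM with DMSO. The Que samples spanned more than the DMSO range on both sides. Its log2 fold change was −0.032 (standard error 0.12, 95% interval −0.30 to 0.23, limma adjusted p = 0.982).

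None of the 3 conjugation genes passed the test. Atg7, the enzyme that activates the ubiquitin-like proteins (chromosome 2R, 18620466 to 18625044, minus strand, 9 exon blocks), had 6.31, 5.88, 6.45 and 5.98 RPKM with Que, against 6.28, 6.41, 6.65 and 5.31 RPKM with DMSO. All Que samples lay inside the DMSO range. The log2 fold change of 0.0020 (standard error 0.11) had a 95% interval from −0.24 to 0.24 in limma. Atg5, which is linked to the ubiquitin-like Atg12 (chromosome X, 7314622 to 7323770, minus strand, 6 exon blocks), had 8.79, 12.2, 9.52 and 9.68 RPKM with Que, against 10.8, 9.44, 10.5 and 10.2 RPKM with DMSO. The highest and the lowest of the 8 samples were both Que samples. For Atg5 the log2 fold change was −0.041 (standard error 0.12, 95% interval −0.31 to 0.23, limma adjusted p = 0.976).

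Atg16, which joins Atg5 and Atg12 in the complex that directs Atg8a to the membrane (chromosome 3R, 29827281 to 29835101, minus strand, 11 exon blocks), had 23.0, 18.8, 15.2 and 17.5 RPKM in Que 1 to 4, against 24.3, 20.3, 20.5 and 19.0 RPKM in DMSO 1 to 4. Here 3 Que samples lay below every DMSO sample, and Que 1 lay above all DMSO samples but DMSO 1. Its mean was 18.6 ± 3.28 RPKM in the Que group and 21.0 ± 2.31 RPKM in the DMSO group (SD, n = 4 each). The log2 fold change was −0.19 (standard error 0.14, 95% interval −0.50 to 0.13, limma adjusted p = 0.946; exact permutation test p = 0.257). Without Que 1 it was −0.29 (limma adjusted p = 0.866, with the unadjusted p under 0.05, as for 636 of 13258 genes tested). Without Que 3 the log2 fold change was −0.093.

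Atg8a, the fly counterpart of mammalian LC3 and the protein that marks autophagosomes, lies on chromosome X from 10764878 to 10768338 (minus strand, 5 exon blocks). It had 316, 329, 278 and 284 RPKM in Que 1 to 4, against 366, 347, 305 and 299 RPKM in DMSO 1 to 4. Que 3 and Que 4 lay below every DMSO sample, and DMSO 1 and DMSO 2 lay above every Que sample. Atg8a averaged 302 ± 24.5 RPKM in the Que group and 329 ± 32.7 RPKM in the DMSO group (SD, n = 4 each), and its log2 fold change was −0.12 (standard error 0.11, 95% interval −0.36 to 0.11, limma adjusted p = 0.946; exact permutation test p = 0.257).

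The cargo receptor ref(2)P, the fly counterpart of the mammalian receptor p62, was the gene with the highest positive value. It lies on chromosome 2L from 19542468 to 19545548 (plus strand, 3 exon blocks). It had 359, 407, 397 and 417 RPKM in Que 1 to 4, against 360.1, 351, 423 and 369 RPKM in DMSO 1 to 4. All 4 Que samples lay inside the DMSO range. The log2 fold change was 0.074 (standard error 0.098, 95% interval −0.15 to 0.29, limma adjusted p = 0.953; exact permutation test p = 0.429). The exons of ref(2)P share 173 bases, 7.22% of its exon length, with CG10337 on the opposite strand. The library kit keeps strand, but the strand setting of the counting is not given in the sources used here, so reads in these bases are uncertain. CG10337 had 1047 to 1424 reads per sample, while ref(2)P had 25902 to 33788. None of the other 8 genes shared exon bases with another listed feature.

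The ratio of ref(2)P to Atg8a within a sample does not depend on a scaling factor of that sample. It was 1.14, 1.24, 1.43 and 1.47 in Que 1 to 4, against 0.982, 1.01, 1.39 and 1.23 in DMSO 1 to 4. Que 3 and Que 4 had higher ratios than every DMSO sample, and DMSO 1 and DMSO 2 had lower ratios than every Que sample. The log2 ratio was 0.39 ± 0.17 with Que and 0.19 ± 0.24 with DMSO (SD, n = 4 each), a difference of 0.20 (exact permutation test p = 0.2), which did not pass the test.

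The pattern of ref(2)P over the 8 samples was also compared with that of 9145 other genes of at least 1 RPKM, as the root mean square difference of log2 values after each gene's mean was taken off. The nearest genes were Npl4 (0.053), Parg (0.057) and Hsc70Cb (0.060), against a median of 0.23 over all genes compared. For Atg8a they were Sytbeta (0.035), Est-Q (0.042) and Pka-R2 (0.043), against a median of 0.24. Genes that vary little lie close to each other on this measure, and the SD over the 8 samples was 0.11 for ref(2)P and 0.14 for Atg8a.

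Taking the 9 genes as a group, 7 had a lower and 2 a higher mean log2 value with Que than with DMSO, where 53.0% of all genes tested had a lower one. An adjusted p under 0.05 was reached by 0 of the 9 genes in limma and by 0.0% of the 13249 genes tested. An unadjusted p under 0.05 was also reached by 0 of the 9, against 3.62% of all genes (479 genes, 1.68% higher and 1.93% lower with Que). With voom on the recovered reads Atg1 alone of the 9 had an unadjusted p under 0.05 (limma adjusted p = 0.942), as did 450 of all genes, and 0 genes had an adjusted one. In 0 of the 9 were the 4 Que samples wholly apart from the 4 DMSO samples, against 2.14% of all genes (0.876% higher and 1.26% lower with Que). The median log2 fold change of the 9 genes was −0.10, and that of all genes tested was −0.016. Without Que 3 the median of the 9 genes was −0.022.

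**Figure D3:**
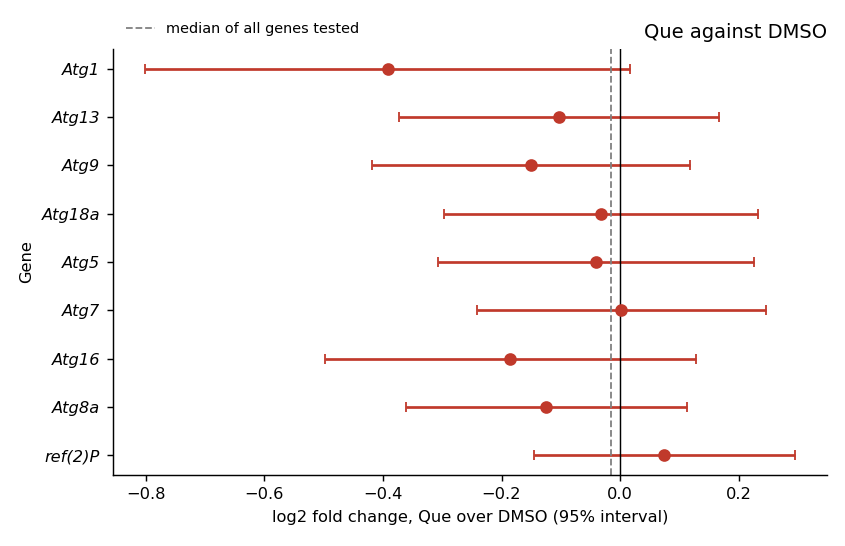
Log2 fold change of each of the 9 genes, Que over DMSO (x axis), with its 95% interval from limma and, dashed, the median of all genes tested at −0.016. Each interval includes 0, and the interval of Atg1 reaches furthest below it, to −0.80.

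The median deviation of the 9 genes from their own means was 0.0062, 0.078, −0.20 and −0.061 on the log2 scale in Que 1 to 4, against 0.17, 0.060, 0.060 and −0.042 in DMSO 1 to 4. Que 3 stood lowest. It was the lowest of the 8 samples for 6 genes, namely Atg1, Atg13, Atg9, Atg18a, Atg16 and Atg8a, which is 66.7% of the 9. Of all genes tested 23.7% were lowest in Que 3, and of those of at least 1 RPKM 26.7% were. Que 3 also had the fewest assigned reads, the lowest summed progenitor markers (esg and Dl, 16.6 RPKM) and the highest summed visceral muscle markers (Mhc, Mlc2 and wupA, 555 RPKM). Over all samples these progenitor markers summed to 16.6 to 26.4 RPKM with Que and 19.8 to 23.7 RPKM with DMSO. The muscle markers summed to 412 to 555 RPKM with Que and 392.1 to 461 RPKM with DMSO. The enterocyte markers nub, Myo31DF and betaTry summed to 1645 to 2069 RPKM with Que and 1201 to 1782 RPKM with DMSO, with betaTry making up most of the sum. Of these betaTry had a log2 fold change of 0.36 (limma adjusted p = 0.946, with the unadjusted p under 0.05), whereas nub and Myo31DF had −0.19 and −0.091. Que 3 was the lowest of the 8 samples for both nub (39.7 RPKM) and Myo31DF (51.9 RPKM). Enteroendocrine markers (pros, Tk and AstC) summed to 676 to 1074 RPKM with Que and 650.1 to 943 RPKM with DMSO. Ovary markers summed to at most 0.223 RPKM with Que and 1.78 RPKM with DMSO, and osk was at 0 reads in all 4 Que samples and at 154 reads in DMSO 1. Fat body markers summed to at most 1.40 RPKM with Que and 1.75 RPKM with DMSO. Malpighian tubule markers summed to 12.7 to 23.5 RPKM with Que and 16.1 to 25.5 RPKM with DMSO. The part of these markers in the values of the autophagy genes was not tested. The samples also differed in how expression varied with gene length. The Spearman correlation, across 11931 genes over 300 bases that are not independent replicates, of a gene's deviation with its length was −0.24, 0.34, −0.24 and −0.0047 in Que 1 to 4, against −0.069, 0.34, −0.00047 and 0.089 in DMSO 1 to 4. With this trend removed from each sample, the median log2 fold change of the 9 genes was −0.066 in place of −0.10.

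A split by replicate number was also visible. Within the Que group 7 of the 9 genes were higher in replicates 1 and 2 than in replicates 3 and 4, and within the DMSO group 7 were. In 6 of them both groups showed this direction, which is 66.7% of the 9 genes against 31.5% of all genes tested. Atg1 differed by 0.57 on the log2 scale between these replicates with Que and by 0.25 with DMSO, Atg16 by 0.35 and 0.17, and Atg8a by 0.20 and 0.24. ref(2)P ran the other way, at −0.091 and −0.15. So did the Malpighian tubule markers, with Uro at −2.17 with Que and −0.75 with DMSO, salt at −1.73 and −0.32, and Irk2 at −0.45 and −0.22. The part of these markers in the split was not tested. No sequencing or dissection batch is given by the labels, so this split follows the replicate numbers only and was noticed after the values were seen. With a term for it, the log2 fold change of Atg1 kept its value of −0.39, with a limma p of 0.0118 and an adjusted p of 0.856. In that fit 692 of all 13249 genes tested had an unadjusted p under 0.05, against 479 without the term.

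**Figure D4:**
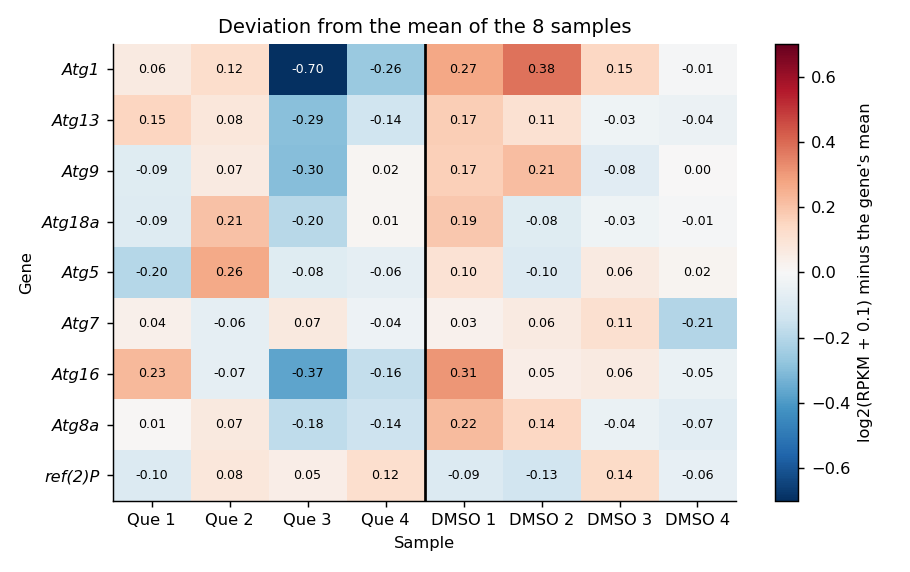
Deviation of log2(RPKM + 0.1) from the gene's own mean over the 8 samples (color and printed value), for the 9 genes (rows) in the Que and DMSO samples (columns). The lowest value is −0.70 for Atg1 in Que 3, and ref(2)P stays within −0.13 to 0.14.

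Within the groups, ref(2)P and Atg7 varied least of the 9 genes. The SD of the log2 values within groups was 0.11 for both, a spread that 8.77% and 9.22% of the 9154 genes of at least 1 RPKM did not exceed. Atg1 varied most, with an SD of 0.29 and a percentile of 70.8. The median gene had an SD of 0.22, and only Atg1 of the 9 exceeded it.

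Genes that act with these 9 were taken from 7 lists of 44 genes in all, of which 43 matched a row. Of the 43, 32 had a lower and 11 a higher mean log2 value with Que, where 53.0% of all genes tested had a lower one. Their median log2 fold change was −0.047, against −0.016 for all genes tested. Of these genes 1, foxo, had an unadjusted limma p under 0.05, where 3.62% of all genes did. None of the 43 had an adjusted p under 0.05, and in 0 were the groups apart, against 2.14% of all genes. The transcription factor foxo, which activates autophagy genes when insulin signaling is low, had 18.2, 15.1, 12.8 and 16.3 RPKM with Que, against 11.8, 14.3, 12.0 and 12.4 RPKM with DMSO. All but Que 3 exceeded every DMSO sample, with a log2 fold change of 0.29 (limma p = 0.0430, adjusted p = 0.946; exact permutation test p = 0.0571). The unadjusted p of foxo was no longer under 0.05 when Que 1, Que 2, Que 4, DMSO 1, DMSO 3 or DMSO 4 was left out. Without Que 4, DMSO 1 or DMSO 3, 0 of the 43 genes had such a p. Among all genes tested in these fits, 353 of 13224, 565 of 13166 and 394 of 13191 had one. Without Que 2, when 1170 of all 13243 genes tested had one and 692 of these were lower, there were 5 of the 43, all with a lower mean (Atg14, Rubicon, Atg18b, bchs and REPTOR, named after their values were seen).

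By role, the members of the Vps34 lipid kinase complex, which makes the PI3P that Atg18a binds, were evenly divided, with 3 of 6 lower. Rubicon, known in mammals as an inhibitor of this complex, was lowest of them at −0.36 and Atg6, its regulatory subunit, highest at 0.10. Of the 2 further genes of the initiation complex 1 had a lower and 1 a higher mean, and neither had a p under 0.05. The same held for the p-values of the 3 lipid transfer and PI3P genes, where Atg18b stood at −0.21 and Tango5 at −0.025. Among the 5 further conjugation genes 4 had a lower mean, beside 53.0% of all genes tested. The values ranged from −0.13 for Atg3, the enzyme that passes Atg8a to its lipid, to 0.26 for Atg12. Atg3 had 374 to 451 RPKM with Que and 389 to 480.4 RPKM with DMSO.

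Of 11 genes for fusion with the lysosome 9 had a lower mean, with a median of −0.086. The share to set beside this and the next 2 counts is the 53.0% of all genes tested with a lower mean. The lowest was Epg5, a tether for autophagosomes, at −0.20, and the highest was dor, a subunit of a lysosomal tethering complex, at 0.11. In selective autophagy and mitophagy 5 of 7 genes had a lower mean. CG5059, listed as BNIP3 among its synonyms and known in mammals as a mitochondrial receptor for autophagy, was lowest at −0.31. It had 306, 292, 171 and 204 RPKM with Que, against 331, 333, 271 and 251 RPKM with DMSO (limma p = 0.146, adjusted p = 0.946; exact permutation test p = 0.229). As in Atg1, Que 3 and Que 4 were its lowest samples. The highest of this list was park, a ubiquitin ligase of mitophagy, at 0.18. Of the 9 upstream regulators 7 had a lower mean, the lowest being AMPKalpha, the catalytic subunit of the energy sensor that activates Atg1, at −0.19.

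**Figure D5:**
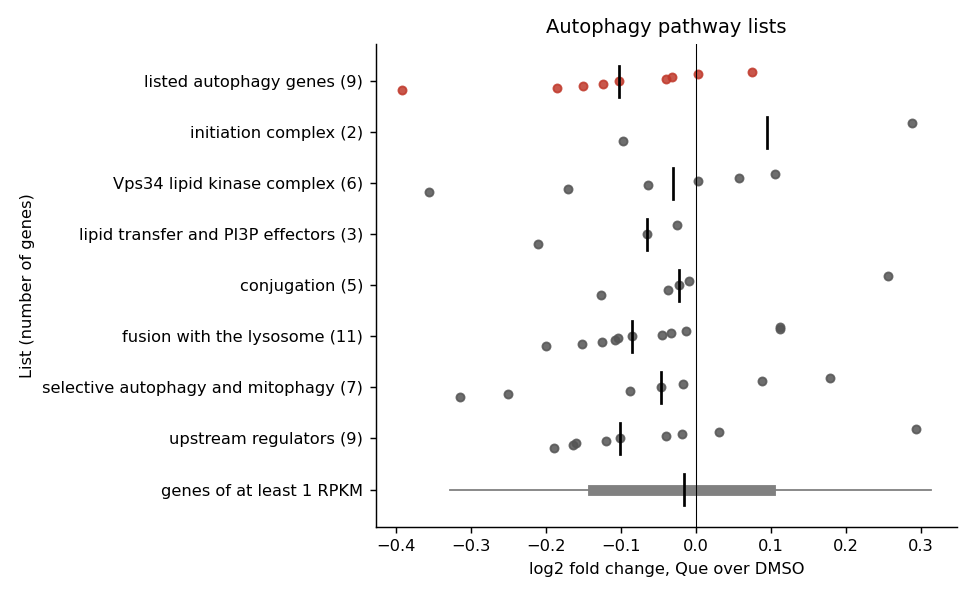
Log2 fold change, Que over DMSO (x axis), of each gene (points) in the 9 listed autophagy genes (red) and in the 7 pathway lists (grey), with vertical bars for medians. The bottom row gives the 9154 genes of at least 1 RPKM as the median, the middle 50% (thick line, −0.14 to 0.098) and the middle 90% (thin line, −0.33 to 0.31), and the lists lie mostly within the thin line.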

How the data were processed

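Per the labels and the paper's methods, the authors filtered the reads with Trimmomatic 0.36, collapsed duplicates, mapped consensus reads to the ISO1 genome with STAR 2.5.3a, counted them with featureCounts and deposited RPKM values. The annotation release and strand setting are not given in the sources used here. RPKM times length, scaled by the assigned reads, gave whole reads (within 0.01) for 100% of values. Groups came from the sample labels.

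Genes averaging 0.1 RPKM or more were tested on log2(RPKM + 0.1) by limma 3.58.1 (trended empirical Bayes) in R 4.3.3. Tables, exact tests and figures were made in Python 3.11.15. The script was tested on simulated data. The members and lists were chosen with earlier results of these data known. All listed autophagy genes were named. From the pathway lists, genes were named when their unadjusted p was under 0.05, when their groups did not overlap, or when they were the extremes of a list of more than 2 genes. Alternatives were other pseudocounts (1 and 0.01 RPKM), filters (1 RPKM or none), quantile normalization, scaling by median of ratios, a loess correction for gene length (span 0.5, over 300 bases), empirical Bayes without the trend, array weights, voom, a replicate block, a term for replicates 1 and 2 against 3 and 4 (added after the values were seen) and each sample left out. No sequences were used.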

Additional observations from a re-analysis of the deposited data

Results flagged for a closer look

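For 3 genes a single sample stood far outside the rest of its group of 4. Among the 46 groups looked at, about 1 in 20, or 2.3, would be so by chance. For AMPKalpha, Que 3 had 76.2 RPKM against 119.8 to 124 RPKM in the other Que samples, a gap of 0.921 of the group's range. For Atg3, Que 3 was the high sample, with 451 RPKM against 374 to 385 RPKM in the other Que samples, a gap of 0.857. For Rubicon, DMSO 4 had 4.06 RPKM against 5.40 to 5.46 RPKM in the other DMSO samples, a gap of 0.957. None of the 9 autophagy genes described in full had such a gap in either group.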

How the results depend on the processing

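The median log2 fold change of the 9 genes stayed negative under all alternatives, between −0.10 and −0.066, and between −0.15 and −0.022 with a sample left out. The difference in the ratio of ref(2)P to Atg8a stayed positive in all of them, from 0.13 to 0.29, with no exact permutation p under 0.05. Under the replicate block and the term for replicates 1 and 2 against 3 and 4, such a p was not possible. There the permutation p was 0.125 and 0.0556, each the smallest that the fewer arrangements allow, so these fits cannot decide the question. The number of all genes with an adjusted p under 0.05 was 0, and it was 2 with no filter on low values, 3 with empirical Bayes without the trend, 2 with array weights and 0 to 2 with a sample left out. Of the 9 genes, 1 (Atg1) had an unadjusted p under 0.05 with array weights, voom, the replicate block and the term for replicates 1 and 2 against 3 and 4, and 0 to 2 had one with a sample left out. Of the 43 pathway genes, 1 had one as reported, against 0 without the trend, 4 with array weights, 3 with the replicate block, 2 with the term for replicates 1 and 2 against 3 and 4, and 0 to 5 with a sample left out. Among all 13249 genes tested, 479 had one as reported and 486 without the trend. There were 1401 with array weights, 450 with voom, 1117 with the replicate block and 692 with the term. With a sample left out there were 353 to 1170 among all genes tested. Small values changed sign. Atg18a was 0.0067 with the length trend removed and 0.020 with array weights, and −0.11 to 0.028 with a sample left out. Atg7 was −0.0014 with array weights and −0.067 to 0.040 with a sample left out, and Atg5 was −0.14 to 0.019 with a sample left out. The cause was not tested.

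Same-numbered samples of the groups deviated together with correlations over genes of 0.49, 0.28, 0.068 and 0.015, so the replicate numbers were not taken to pair the samples. Under the replicate block the log2 fold change of Atg1 was −0.39 (limma p = 0.0192, adjusted p = 0.589), 1117 genes had an unadjusted p under 0.05 in place of 479, and not every sample correlated best with its own number. With array weights 1401 genes had one, and without Que 2 there were 1170. With 4 samples per group, a difference that misses the threshold does not show equal levels.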
